A study of Mus musculus with 5 samples.

Results

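Cdx1, Cdx2, Hnf4a, Hnf4g, Elf3, Klf4 and Klf5 encode transcription factors that set and keep the identity of the intestinal epithelium, and their messenger RNA was followed here through 5 single-cell libraries of mouse colon. These 7 genes, of 22146 in the files, were chosen by name and all 7 had counts in every library. Of 8491 cells kept, 5107 were named as columnar, squamous or secretory epithelial cells. The AOM/DSS model gives colonic tumors by azoxymethane (AOM), a carcinogen, followed by dextran sodium sulfate (DSS), which injures the epithelium. All 4 tumor libraries came from mice labelled WT that also received 5FU and Irinotecan, and no tumor library without the drugs was analysed here. The early group held 2 libraries of day 1 (replicates 1 and 2) and the late group 1 library of day 3 and 1 of day 6. The study's methods call these days post-treatment and place the harvest after the final drug cycle. A single library of untreated WT colon, prepared by fibroblast dissociation, served as the normal colon and had no replicate. Mice were either on a pure C57BL/6J or on a mixed C57BL/6J;129 background, with the strain, age and number of animals of each library not given in the sources used here beyond an age range in weeks for all mice at the start of experiments, so the spread between libraries may hold technical as well as animal differences.

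CDX1 and CDX2 are caudal-type homeobox proteins that specify intestinal fate, and loss of CDX2 lets gastric or squamous features appear in the gut. HNF4A and its paralog HNF4G are nuclear receptors that switch on the brush border and lipid genes of enterocytes. ELF3 is an epithelial ETS factor, KLF5 is found mainly in the proliferating crypt, and KLF4 in the differentiated surface cells and goblet cells of the colon. KLF4, KLF5 and ELF3 also act in stratified squamous epithelia, whereas the CDX and HNF4 proteins do not belong to the squamous program.

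The loci lie apart in the genome, and 6 are given here (GRCm38, GENCODE M21 gene models). Cdx2 spans chromosome 5 from 147300805 to 147307270, Hnf4a chromosome 2 from 163506808 to 163572910 and Hnf4g chromosome 3 from 3508030 to 3658052. Elf3 spans chromosome 1 from 135253575 to 135258568, Klf4 chromosome 4 from 55527143 to 55532466 and Klf5 chromosome 14 from 99298691 to 99315036. Hnf4a is overlapped on the other strand by Hnf4aos, which had 2787 UMIs against 9841 of Hnf4a, and Elf3 by Gm26642, with 68 UMIs against 21841. Whether counting used the strand was not given in the sources used here, so reads of these pairs may be shared.

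The 250 bases before the RefSeq start sites of 4 members (GRCm38.p6) follow, the members with an entry among the RefSeq windows used here. Of these, Cdx2 and Hnf4a were lower in squamous than in columnar cells, and Elf3 and Klf4 did not pass that test. Capitals mark 5-base cores read on both strands: TTTAT for CDX, CAAAG for HNF4 and CACCC for KLF proteins. Hnf4a has an upstream and a downstream start, which the 3′ counts of these libraries do not tell apart.
Cdx2, chr5:147307250-147307499, minus strand: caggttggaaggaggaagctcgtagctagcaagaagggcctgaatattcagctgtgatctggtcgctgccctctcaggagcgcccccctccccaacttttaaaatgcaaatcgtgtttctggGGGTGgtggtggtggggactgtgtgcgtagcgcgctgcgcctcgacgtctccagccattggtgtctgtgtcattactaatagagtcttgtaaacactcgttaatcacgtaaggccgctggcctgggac
Hnf4a upstream start, chr2:163506607-163506856, plus strand: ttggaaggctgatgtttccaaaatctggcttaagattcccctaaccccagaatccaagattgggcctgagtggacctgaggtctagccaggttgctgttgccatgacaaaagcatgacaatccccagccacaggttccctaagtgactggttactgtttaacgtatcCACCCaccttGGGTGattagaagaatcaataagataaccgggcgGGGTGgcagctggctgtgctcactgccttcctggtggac
Hnf4a downstream start, chr2:163546905-163547154, plus strand: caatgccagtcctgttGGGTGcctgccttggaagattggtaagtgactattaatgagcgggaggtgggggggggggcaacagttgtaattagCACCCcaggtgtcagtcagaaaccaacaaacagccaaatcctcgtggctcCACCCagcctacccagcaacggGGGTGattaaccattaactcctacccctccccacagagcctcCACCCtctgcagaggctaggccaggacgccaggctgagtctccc
Elf3, chr1:135258473-135258722, minus strand: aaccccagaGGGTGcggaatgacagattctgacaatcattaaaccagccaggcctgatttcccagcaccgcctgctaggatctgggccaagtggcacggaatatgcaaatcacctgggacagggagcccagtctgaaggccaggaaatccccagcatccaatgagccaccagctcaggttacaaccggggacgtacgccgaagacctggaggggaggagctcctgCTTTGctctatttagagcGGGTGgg
Klf4, chr4:55532476-55532725, minus strand: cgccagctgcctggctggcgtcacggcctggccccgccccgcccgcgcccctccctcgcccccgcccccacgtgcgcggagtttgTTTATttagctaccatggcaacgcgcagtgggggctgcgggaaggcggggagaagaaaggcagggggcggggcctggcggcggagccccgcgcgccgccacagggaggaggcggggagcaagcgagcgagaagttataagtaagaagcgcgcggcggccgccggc
Matches to CACCC or its reverse complement numbered 1 before Cdx2, 3 and 5 before the upstream and downstream Hnf4a starts, 2 before Elf3 and 0 before Klf4. Elf3 had 1 match to the HNF4 core and Klf4 had 1 match to the CDX core. Among all 32851 RefSeq windows of this length, 52% held the KLF core, 48.6% the HNF4 core and 37.3% the CDX core, so a match is a description of the letters and no sign of binding.

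The tumor libraries held between 5132360 and 16904947 UMIs (unique molecular identifiers, each standing for a captured transcript) and the normal library 5814641. Levels are given as CPM, the UMIs of a gene summed over the cells of a class in a library and scaled to the same total in each. Treated columnar cells numbered 3085, from 274 to 1253 per library, squamous cells 1235, from 52 in day 1 replicate 1 to 726 in day 6, and secretory cells 390. Clusters were named without use of the 7 genes. The 5 squamous clusters averaged 1.71 to 2.29 on the log2 scale above their reference cells over all 12 squamous markers, of which 8 to 12 met the fold cut for naming. The treated columnar clusters averaged 0.27 (T2) to 2.09 (T8) over the columnar markers. No cluster of the columnar or squamous class held a marker of another class among its 10 leading genes, and no columnar cluster held a columnar marker there. Transcripts of columnar cells were also found in cells that should lack them. The 7 columnar markers had a median level in non-epithelial cells of 37.0% and 39.0% of that in columnar cells on day 1, 66.6% on day 3, 26.7% on day 6 and 4.05% in the normal library. Squamous markers in non-epithelial cells had a median of 3.09% to 19.4% of the squamous level. Squamous and columnar levels are therefore also compared with those of non-epithelial cells of the same libraries. Levels of bins, clusters and secretory types are mostly given without that comparison. The share of free RNA in each result was not tested. Non-epithelial cells left 149 cells on day 3, and only 4 to 41 barcodes were shared between any pair of libraries.

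The first comparison asked which of these factors differ between squamous and columnar cells of the same tumors. Both HNF4 genes and both CDX genes were lower in squamous cells, while Elf3, Klf4 and Klf5 did not pass the test. The count of 4 of 7 lower stands beside 9.17% of 12349 genes called lower, 7.81% called higher and 17.0% called in either direction. The median log2 fold change of the 7 was -1.24, beside -0.06 over all genes tested.

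**Figure D1:**
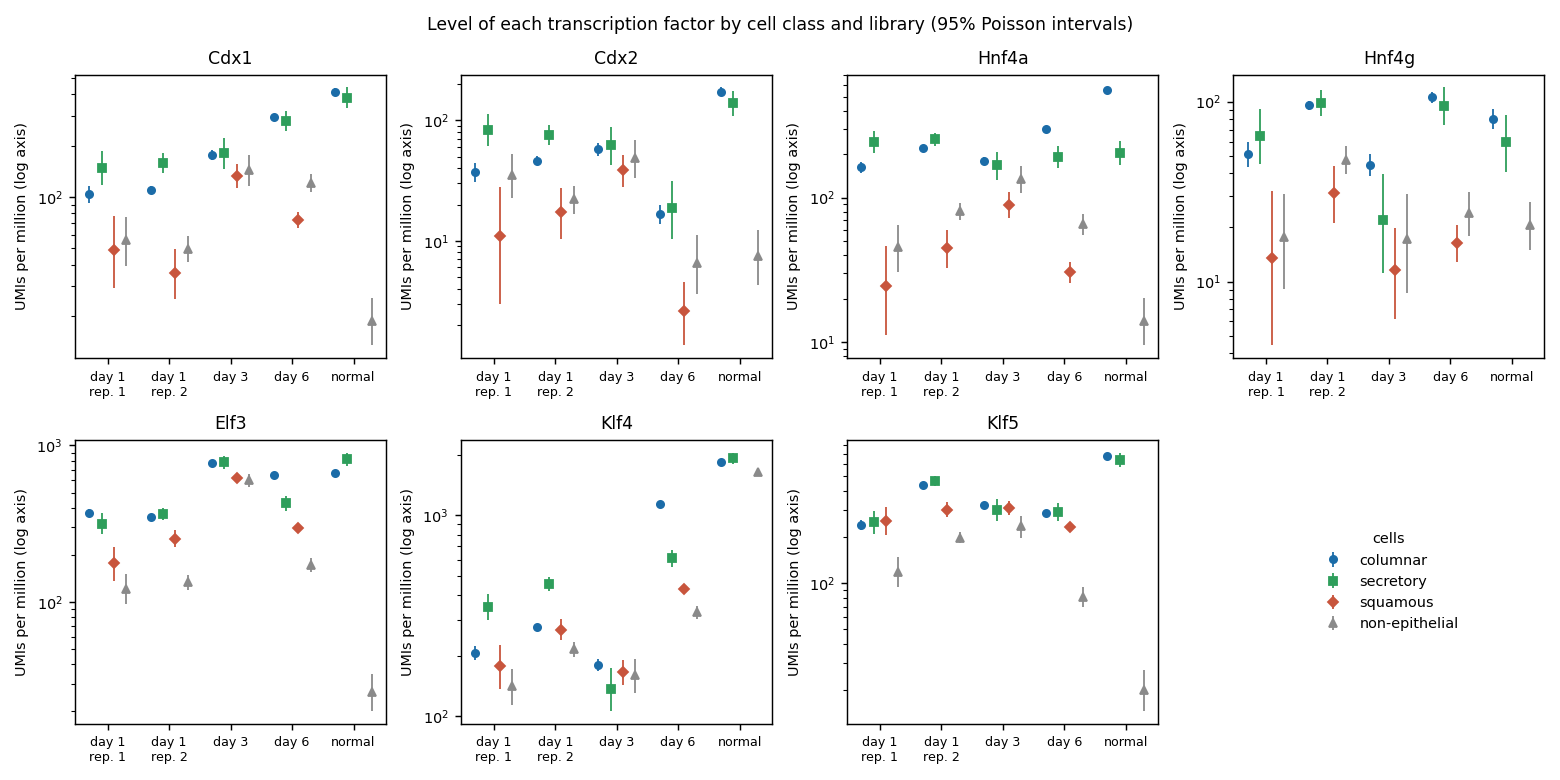
Level of each of the 7 genes in CPM on a log axis in columnar, secretory, squamous and non-epithelial cells of each library, with bars for 95% Poisson intervals that cover counting error only. Squamous points of Hnf4a and Hnf4g lie below the non-epithelial points in all 4 tumor libraries, and Klf5 in squamous cells lies between 231 and 312 CPM, above the non-epithelial points.

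Values of the 4 tumor libraries are given in the order day 1 replicate 1, day 1 replicate 2, day 3, then day 6. Hnf4a, the nuclear receptor of enterocyte genes, stood at 162, 222, 179 and 297 CPM in columnar cells. In squamous cells of these libraries it stood at 24.5, 44.5, 89.3 and 30.5 CPM. The classes did not overlap, and squamous cells were lower by 2.25 ± 0.39 on the log2 scale (log2 fold change -2.25 ± 0.39 SE, n = 4 libraries, edgeR quasi-likelihood test, adjusted p = 0.00619). Non-epithelial cells held 45.4, 80.7, 134 and 65.4 CPM, so squamous cells lay below the cells used as background in 4 of 4 libraries.

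Hnf4g had few UMIs but the same order. Its columnar levels were 51.1, 95.5, 44.6 and 106 CPM and its squamous levels 13.6, 31.0, 11.6 and 16.3 CPM. The log2 fold change was -2.06 ± 0.29 (edgeR adjusted p = 0.0028). Non-epithelial levels of 17.6, 47.6, 17.2 and 24.0 CPM were again above the squamous ones in each library.

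Cdx2, the homeobox gene on which the intestinal type of the epithelium depends, stood at 37.2, 46.2, 57.7 and 16.7 CPM in columnar cells. Squamous cells held 10.9, 17.4, 38.4 and 2.61 CPM, from only 4, 18, 43 and 12 UMIs. The log2 fold change was -1.45 ± 0.37 (edgeR adjusted p = 0.0311). On day 6 both classes were at their lowest. In day 1 replicate 1 the non-epithelial level of 35.1 CPM was 94.4% of the columnar level, so that Cdx2 in columnar cells as a whole was barely above background there.

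Cdx1 gave 103, 110, 176 and 296 CPM in columnar cells and 48.9, 35.8, 133.0 and 73.4 CPM in squamous cells. The log2 fold change was -1.24 ± 0.30 (edgeR adjusted p = 0.0243), and squamous cells were lower in each of the 4 libraries. The calls for Cdx1 and Cdx2 were lost without either day 1 library, with adjusted p of 0.0798 and 0.106 without replicate 1 and 0.0999 and 0.0943 without replicate 2, while both HNF4 calls held without any 1 library.

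Elf3, which acts in columnar and stratified epithelia alike, gave 368, 348, 776.0 and 649 CPM in columnar cells and 177, 254, 621 and 298 CPM in squamous cells. The log2 fold change of -0.67 ± 0.23 did not pass (edgeR adjusted p = 0.0821), and passed with scaling by total UMIs (adjusted p = 0.0336), with no filter on low counts (adjusted p = 0.0139) and without the columnar clusters nearest to the non-epithelial level (adjusted p = 0.0345), each of which gave 5 members lower. Klf5 gave 240, 440, 322 and 287 CPM in columnar cells and 256, 301, 312 and 231 CPM in squamous cells, with overlapping ranges and a log2 fold change of -0.15 ± 0.19 (edgeR adjusted p = 0.662). Klf4 gave 206, 279, 180.3 and 1142 CPM in columnar cells and 177, 269, 165 and 429 CPM in squamous cells. The classes were alike within 15% in 3 libraries by squamous-to-columnar ratios of 0.859, 0.964 and 0.916, and day 6 stood apart with a ratio of 0.375. The Klf4 log2 fold change was -0.39 ± 0.30 (edgeR adjusted p = 0.449).

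Against non-epithelial cells of the same libraries, squamous cells summed as 1 class had more Klf5 and Elf3 and less Hnf4a. The Elf3 difference did not hold in every squamous cluster, as given below. Klf5 was higher by 0.92 ± 0.19 on the log2 scale (edgeR adjusted p = 0.00872) and Elf3 by 0.60 ± 0.18 (adjusted p = 0.0427), and Hnf4a was lower by 0.83 on that scale (log2 fold change -0.83 ± 0.21, adjusted p = 0.019). Of 9990 genes tested, 11.5% were called higher and 14.0% lower, 25.5% in all. Cdx1, Cdx2, Hnf4g and Klf4 had log2 fold changes of -0.38 ± 0.21, -0.69 ± 0.32, -0.55 ± 0.22 and 0.29 ± 0.16 with adjusted p of 0.221, 0.154, 0.109 and 0.21. Summed as 1 class, squamous cells thus had no CDX or HNF4 transcript called above the background level. Single squamous clusters did lie above it for Cdx2 or Hnf4a, as given below. Without day 6 none of the 7 passed, with adjusted p of 0.0509 for Klf5, 0.173 for Elf3 and 0.0976 for Hnf4a. The Elf3 and Hnf4a calls were also lost without day 1 replicate 1 (adjusted p = 0.104 and 0.0686) and without day 1 replicate 2 (adjusted p = 0.193 and 0.0508), and that of Elf3 with scaling by total UMIs (adjusted p = 0.0668). Columnar cells, set against the same non-epithelial cells in a test added after the data were seen, were higher in Cdx1, Hnf4a, Hnf4g, Elf3 and Klf5, by log2 fold changes of 0.83 ± 0.19 to 1.42 ± 0.25 (edgeR adjusted p from 0.00713 to 0.0189, 11.4% of 12134 genes called higher and 25.8% in either direction), and not in Cdx2 (0.59 ± 0.27, adjusted p = 0.152) or Klf4 (0.64 ± 0.29, adjusted p = 0.16).

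**Figure D2:**
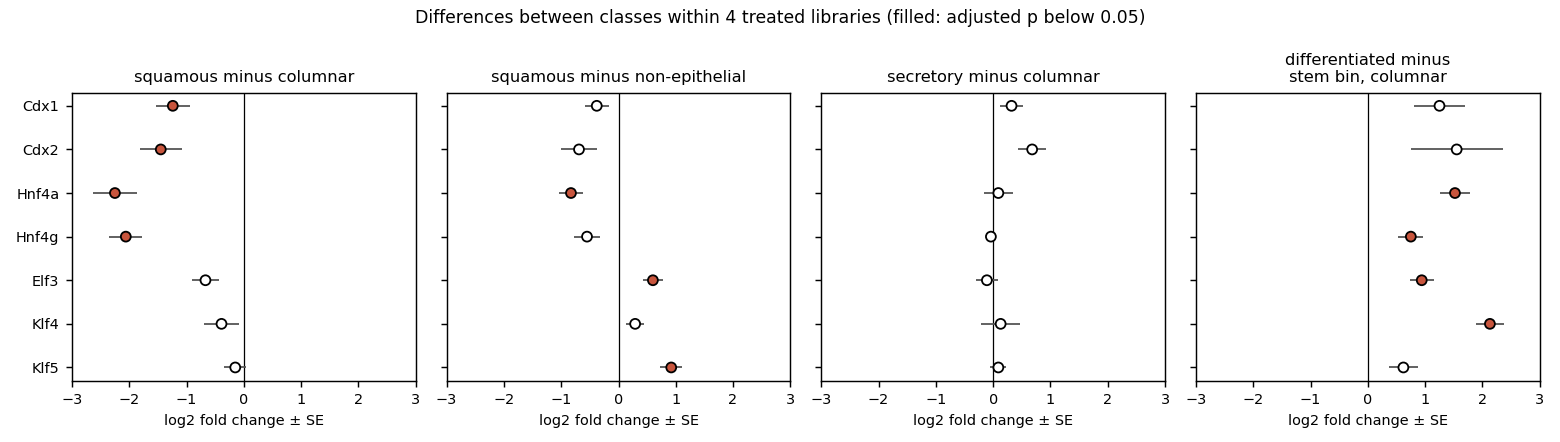
Log2 fold change of each of the 7 genes with its standard error in 4 comparisons within the 4 tumor libraries (x axis, log2 fold change), with filled points for adjusted p below 0.05. Squamous cells have 4 filled points below 0 against columnar cells and, against non-epithelial cells, filled points for Hnf4a below 0 and for Elf3 and Klf5 above 0.

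The other factors of each program, taken from lists of what they are known for, split by program. Of 16 tested other intestinal transcription factors, 10 were lower in squamous than columnar cells and 0 higher, with a median log2 fold change of -1.45. They included Nr5a2 (-2.81 ± 0.53), a nuclear receptor of the crypt, and Gata6 (-1.85 ± 0.39), a zinc finger factor of gut endoderm. Of 12 squamous and epithelial factors 10 were higher, led by Sox2 (4.14 ± 0.27, edgeR adjusted p = 3.2e-04), Tfap2c (4.93 ± 0.46, adjusted p = 5.7e-04), Trp63 (5.54 ± 0.60, adjusted p = 9.2e-04), the master regulator of basal squamous cells, and Grhl1 (3.23 ± 0.36, adjusted p = 0.00104). These last 4 had the lowest p over all lists. Of 16 tested brush border and adhesion genes 11 were lower and 0 higher (median -1.81), Cdh17, an intestinal cadherin, by -2.23 ± 0.31 and Mep1a, a brush border protease, by -2.97 ± 0.53. Among 13 tested relatives of the KLF and ELF genes only Elf4 passed (-1.22 ± 0.26, adjusted p = 0.0136), and Elf5, listed with the squamous factors, was higher (3.37 ± 0.39, adjusted p = 0.00114).

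Squamous clusters differed among themselves, given as a description since the clusters were made from the same cells. The T4 cluster, led by Krt17, Col17a1 and Trp63, genes of basal squamous cells, held 96.1, 77.7 and 124 CPM of Elf3 in day 1 replicate 1, day 1 replicate 2 and day 6. Non-epithelial cells there held 121.5, 133.2 and 171.8 CPM, so T4 lay below them in each. The T12 cluster, led by Ltf, Psca and Ppbp with Krt13 among its 10 leading genes, held 594 CPM in day 1 replicate 2 and 468 CPM in day 6. Elf3 was thus several times higher in T12 than in T4 in both of these libraries. Klf4 moved the same way, with 213 and 303 CPM in T4 and 425.0 and 534 CPM in T12. On day 6 the T20 cluster, led by Krt10, Calm4 and Tgm1, genes of late keratinocyte differentiation, had 639 CPM of Klf4. Klf5 changed little between T4 and T12, with 239 and 200.6 CPM against 279 and 264 CPM. Cdx2 stayed between 2.27 and 7.97 CPM in T4 and T12 in these libraries. It was higher in T22 and T10, which held most squamous cells of day 1 replicate 2 and day 3. T22 held 43.3 CPM (Poisson interval 22.4 to 75.6) in day 1 replicate 2, against 22.1 CPM in non-epithelial cells. T10 held 39.1 CPM on day 3, below the non-epithelial 48.5 CPM. Hnf4a lay above the non-epithelial level in T22 (111.9 against 80.7 CPM) and in T20 on day 6 (118.1 against 65.4 CPM), and below it in T4, T10 and T12.

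**Figure D3:**
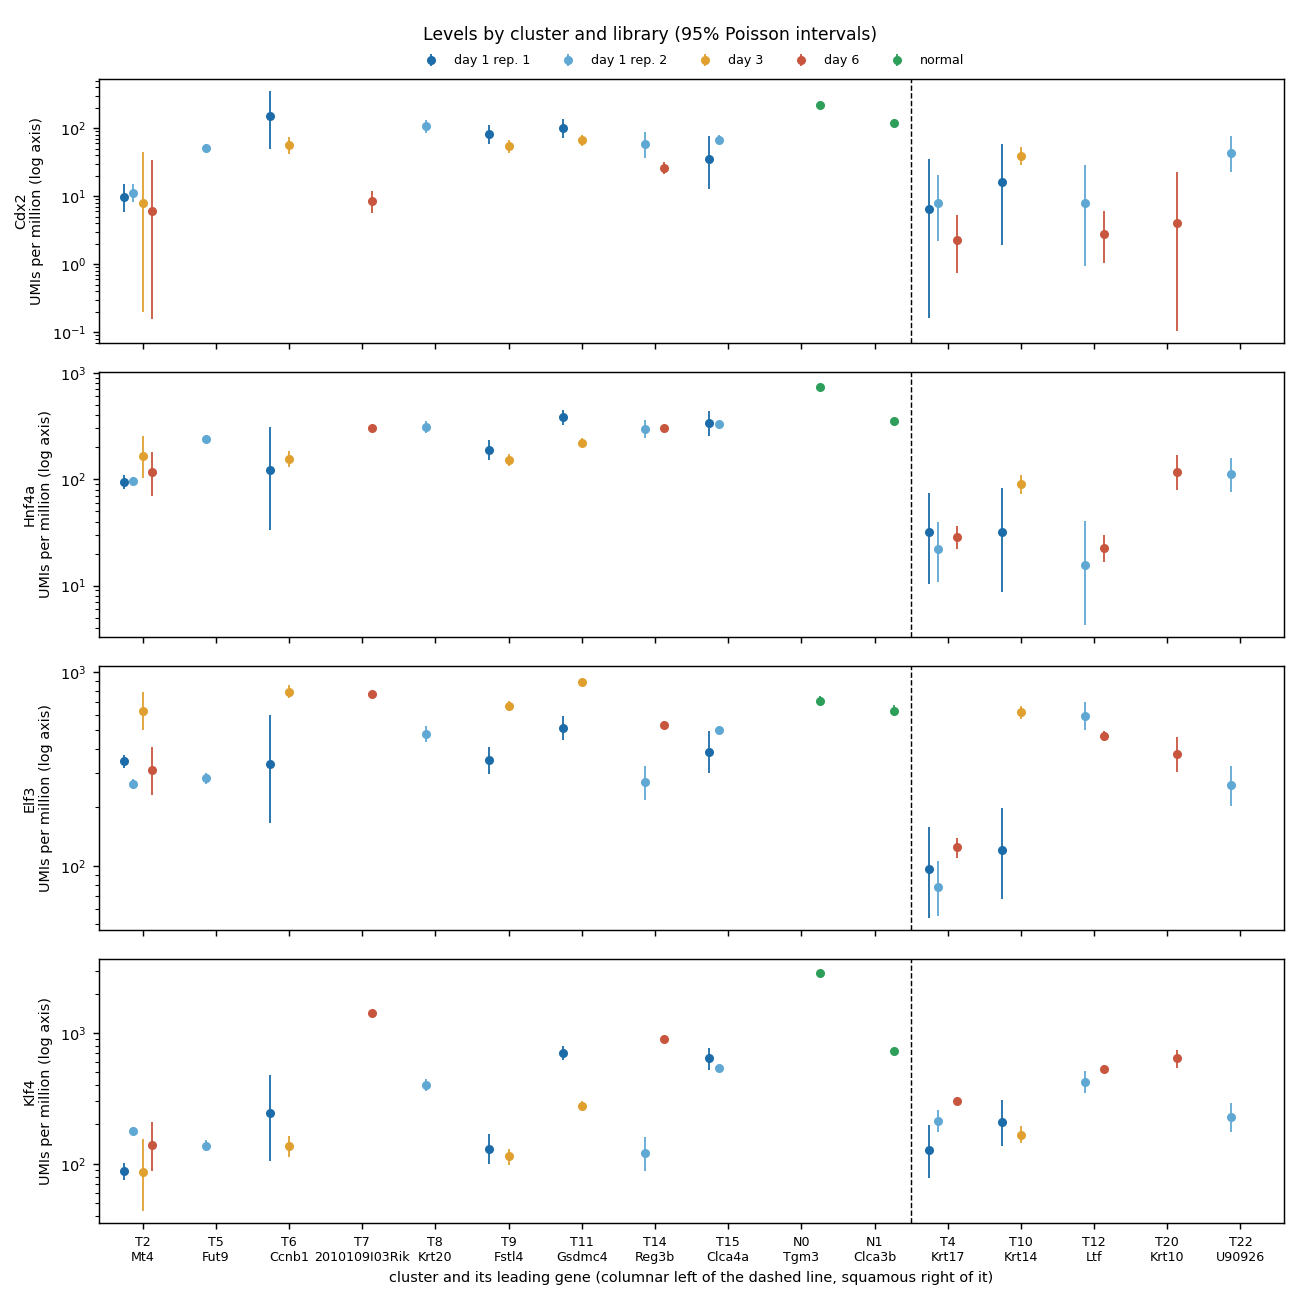
Levels of Cdx2, Hnf4a, Elf3 and Klf4 (CPM, log axes) in each columnar and squamous cluster with at least 10 cells in a library, with bars for 95% Poisson intervals. Elf3 is near 100 CPM in cluster T4 and over 400 CPM in T12, and Cdx2 is near 10 CPM in the columnar cluster T2 in all 4 tumor libraries.

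Columnar clusters also differed. T2, led by Mt4, Mdga2 and Spock2 and including the Wnt target genes Wif1 and Nkd1 among its leading genes, had 9.69, 11.3, 7.89 and 6.10 CPM of Cdx2 in the 4 tumor libraries. Both day 1 levels lay below those of non-epithelial cells (35.1 and 22.1 CPM), while the T2 values of days 3 and 6 rest on 1 UMI each and cannot be ranked against the 48.5 and 6.59 CPM there. T2 was also the columnar cluster nearest to background by its naming markers, at 0.27 on the log2 scale above non-epithelial cells. Other columnar clusters of day 1 held 35.2 to 152 CPM of Cdx2, with these ends from 6 and 5 UMIs in 15 cells each. Day 6 was low in all its columnar clusters, with 26.0 CPM in T14 and 8.35 CPM in T7, whereas Cdx1 in these clusters stood at 433 and 174 CPM. On day 6 the CPM levels of Cdx1 and Cdx2 thus went in opposite directions, with Cdx1 at its highest and Cdx2 at its lowest columnar level of the tumor libraries. Non-epithelial Cdx2 was also lowest on day 6. Relative to non-epithelial cells the genes did not diverge, as both columnar ratios were highest on day 6 (2.43 for Cdx1 and 2.53 for Cdx2).

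To follow the factors along the crypt axis, columnar cells of each library were ranked by the ratio of 15 surface genes to 14 stem genes and split in 3 equal bins (stem, middle and differentiated), which are ranges of a score and not cell types. Klf4, Hnf4a, Elf3 and Hnf4g were higher in the differentiated than in the stem bin (4 of 7 members, beside 13.7% of 10242 genes called higher, 9.71% lower and 23.4% in all). Klf4 rose in every tumor library, from 69.6 to 466 CPM in day 1 replicate 1, from 150.1 to 503 CPM in day 1 replicate 2, from 105.0 to 280.3 CPM on day 3 and from 673 to 1511 CPM on day 6. The log2 fold change was 2.13 ± 0.25 (edgeR adjusted p = 0.00274). In the normal colon Klf4 went from 709 to 3176 CPM. Hnf4a had stem and differentiated levels of 79.7 and 299.5 CPM, 109.7 and 354 CPM, 140.0 and 215 CPM, and 260.5 and 336 CPM in the same order (log2 fold change 1.52 ± 0.26, adjusted p = 0.00731), and 339 and 726 CPM in the normal colon. Elf3 gave 0.94 ± 0.21 (adjusted p = 0.0179), a call lost without day 1 replicate 2 (adjusted p = 0.109). Hnf4g gave 0.75 ± 0.22 (adjusted p = 0.0428), with a lower level in the differentiated bin on day 6 (78.4 against 100.6 CPM) and adjusted p of 0.139, 0.159 and 0.0923 without day 1 replicate 1, day 1 replicate 2 and day 3. Without day 6 all 7 passed, and with cells split at the median score 3 passed, Hnf4g being lost (adjusted p = 0.0619). TMM scaling placed the median gene at -0.02, against -0.40 with scaling by total UMIs, under which Klf4 (1.74 ± 0.28, adjusted p = 0.00606) and Hnf4a (1.13 ± 0.29, adjusted p = 0.0275) passed and Elf3 (adjusted p = 0.0732) and Hnf4g (adjusted p = 0.317) did not.

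**Figure D4:**
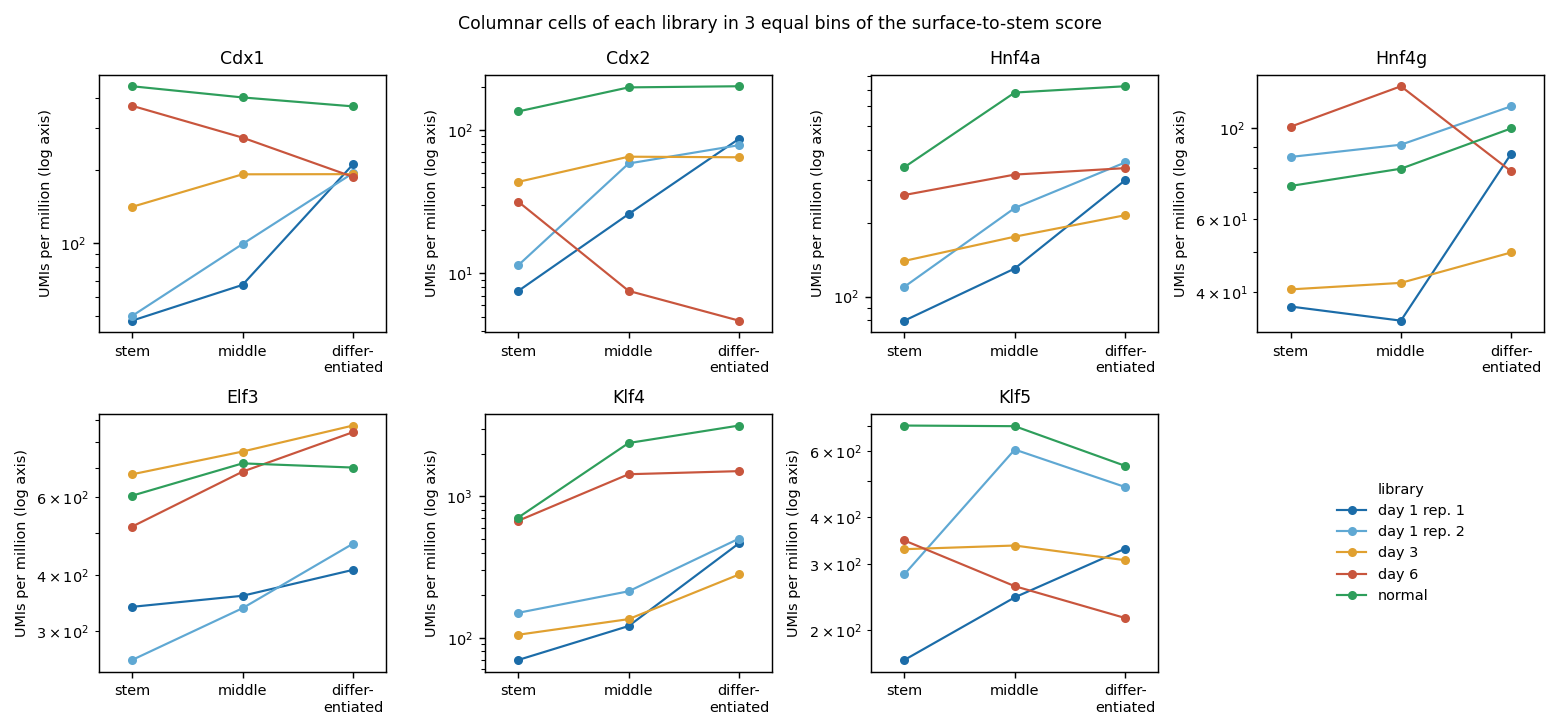
Level of each gene (CPM, log axes) in the stem, middle and differentiated bin of columnar cells, with 1 line per library and no error bars. Klf4 and Hnf4a end higher than they start in all 5 libraries, while Cdx1 and Cdx2 climb in both day 1 libraries and descend on day 6.

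Cdx1 and Cdx2 did not share 1 direction over the libraries. Cdx1 stood at 47.8, 50.0, 141 and 370.4 CPM in the stem bins and at 212, 195, 193 and 188 CPM in the differentiated bins. The differentiated level was thus nearly the same in all 4 libraries, and the stem level was lowest on day 1 and highest on day 6. Non-epithelial cells of these libraries held 55.6, 49.5, 143.8 and 121.4 CPM of Cdx1. The stem bins of days 1 and 3 stood near that level, and only the day 6 one was well above it. The difference between bins was smaller in late than in early libraries by 2.11 on the log2 scale (bin by time term -2.11 ± 0.37, edgeR adjusted p = 0.039), a test added after the pattern was seen, in which 0.947% of 10242 genes were called lower. Cdx2 stood at 7.55, 11.4, 43.4 and 31.6 CPM in the stem bins and at 86.6, 78.2, 64.4 and 4.69 CPM in the differentiated bins, the last from 7 UMIs. Non-epithelial cells held 35.1, 22.1, 48.5 and 6.59 CPM of Cdx2, above the stem bins of days 1 and 3 and the differentiated bin of day 6. The bin by time term of Cdx2 was -3.45 ± 0.72 (edgeR adjusted p = 0.063), and it passed with scaling by total UMIs (adjusted p = 0.0313) and DESeq2 (adjusted p = 5.0e-04). The early stem bins had median depths of 9722 and 7881 UMIs per cell and the day 6 one 12905, against 5266, 3867 and 4378.5 in the differentiated bins. The score itself also differed, with the upper border of the stem bin at -1.95 and -1.30 on day 1, 1.33 on day 3 and 5.83 on day 6. The differentiated bins of day 1 began at 0.58 and 1.57, below the upper border of the day 6 stem bin. The bin by time term thus compares different ranges of the score, and 8 of 14 tested surface genes had a lower term. The part of these differences and of the non-epithelial level in the Cdx1 result was not tested. In the normal colon Cdx1 had 446 CPM in the stem and 368 CPM in the differentiated bin and Cdx2 had 134 and 201 CPM. Klf5 followed the order of Cdx1, with differentiated-to-stem ratios of 1.98 and 1.71 on day 1, 0.935 on day 3, 0.621 on day 6 and 0.78 in the normal colon (log2 fold change over the tumor libraries 0.62 ± 0.25, adjusted p = 0.112).

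Secretory cells of the tumors, taken as goblet-like, Paneth-like and enteroendocrine-like cells, had counts of all 7 factors, and none passed the test against columnar cells (9.22% of 11267 genes were called, 5.79% higher and 3.43% lower, and DESeq2 called 0 of the 7 as well). By edgeR, the unadjusted p was below 0.05 for 1 of the 7, Cdx2. Against non-epithelial cells, secretory levels on day 3 were 0.859 (Klf4) to 1.30 (Elf3) times as high. In the other tumor libraries they were 1.86 (Klf4, day 6) to 5.37 (Hnf4a, day 1 replicate 1) times as high. Secretory levels of Cdx2 were 83.9, 76.0, 62.4 and 18.8 CPM, above the columnar level in 4 of 4 libraries (log2 fold change 0.68 ± 0.25, edgeR adjusted p = 0.139). The class was mixed unevenly, since 100 of its 101 Paneth-like cells came from day 1. Goblet-like cells alone, an alternative chosen after seeing the data, gave a Cdx2 log2 fold change of 1.01 (adjusted p = 0.0342), with 108.9, 83.5, 65.7 and 29.4 CPM. Klf4 in goblet-like cells was 451, 564.5, 149 and 837 CPM, above the columnar level in both day 1 libraries and below it on days 3 and 6. Enteroendocrine-like cells held 111, 50.5 and 204.5 CPM of Klf4 in day 1 replicate 1, day 1 replicate 2 and day 6, and on day 6 no UMI of Cdx2 in 40 cells. That count of 0 allows up to 11.2 CPM. Of 6 tested secretory factors 4 were higher than in columnar cells, Atoh1 (4.03 ± 0.29), which commits cells to the secretory lineage, Spdef (4.20 ± 0.31), Insm1 (5.61 ± 0.68) and Gfi1 (1.96 ± 0.33), and Foxa2 and Foxa3 were higher by 1.40 ± 0.20 and 1.38 ± 0.25. The 4 genes of lowest p over the lists were Atoh1, Spdef, Insm1 and Gsdmc4, the last a gasdermin of surface cells (-2.28 ± 0.20).

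Late against early tumors were compared within columnar and within squamous cells. None of the 7 passed in either class by edgeR, and neither did any of 13240 and 9739 genes (0% called), with 2112 and 390 genes at an unadjusted p below 0.05. DESeq2 called 618 genes in columnar and 20 in squamous cells, among them Cdx1 (1.59, adjusted p = 0.0351) and Elf3 (1.42, adjusted p = 0.0274) in columnar cells. Cdx1 and Elf3 were higher in both late libraries than in both early ones in columnar cells, with edgeR log2 fold changes of 1.57 ± 0.42 (adjusted p = 0.227) and 1.40 ± 0.39 (adjusted p = 0.233). The non-epithelial cells of these libraries showed mean changes of similar size, 1.48 ± 0.40 for Cdx1 and 1.69 ± 0.63 for Elf3. The columnar minus non-epithelial terms were 0.04 and -0.06 ± 0.47 (edgeR adjusted p = 0.996 and 0.994, with 0.280% of 12134 genes called higher and 0.0247% lower). For Elf3 the late libraries were unlike, with 597.0 CPM in non-epithelial cells on day 3 and 171.8 CPM on day 6, against 121.5 and 133.2 CPM on day 1. Columnar to non-epithelial ratios of Elf3 were 3.03 and 2.61 on day 1, 1.30 on day 3 and 3.78 on day 6. Whether the non-epithelial transcripts of Cdx1 and Elf3 were free RNA was not tested.

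Klf4 rested on 1 library. Columnar levels of 206 and 279 CPM on day 1 and 180.3 CPM on day 3 stood against 1142 CPM on day 6, and without day 6 the log2 fold change was -0.07. Without day 3 it was 2.72 (adjusted p = 7.4e-04), but the late group was then the day 6 library alone, assumed to vary like the early ones, and 1969 genes were called in that fit against 0 with all libraries. Both single index libraries (day 1 replicate 1 and day 3) were sequenced on a BGI MGI-Seq and both dual index libraries (day 1 replicate 2 and day 6) on a Novaseq6000. Within the single index libraries columnar Klf4 changed by -0.19 on the log2 scale from early to late and within the dual index ones by 2.03. Cdx2 went the opposite way, by 0.63 and -1.47, whereas Cdx1 (0.77 and 1.43) and Elf3 (1.08 and 0.90) rose in both structures. Non-epithelial Cdx2 changed in the same directions as columnar Cdx2, by 0.47 and -1.75. Cdx1 and Elf3 also rose in both structures in non-epithelial cells, and Klf4 changed there by 0.18 and 0.61. In squamous cells the within-structure changes of Cdx2 were 1.82 and -2.74 and those of Klf5 0.29 and -0.38. Non-epithelial Klf5 changed in the same directions as squamous Klf5, by 0.98 and -1.28. The part of the non-epithelial changes in the columnar and squamous ones was not tested within structures. Day 3 and day 6 thus differed from each other as much as from day 1 in several members. The class by time terms, which ask whether squamous and columnar cells changed differently, ranged from -1.05 ± 0.48 for Hnf4g to 0.00 for Hnf4a, and none passed (edgeR, 0% of 12349 genes called, 1140 at an unadjusted p below 0.05 and 57 called by DESeq2, none of the 7 among them).

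The share of cells with at least 1 UMI was compared after thinning each cell to 1000 UMIs. Columnar cells with Cdx1 made up 7.30%, 11.1%, 15.3% and 24.8% in the 4 tumor libraries, and 30.7% in the normal library. Non-epithelial shares were 5.52%, 5.62%, 12.8% and 12.1%, and 1.93% in the normal library. Elf3 was in 25.9%, 28.7%, 54.5% and 49.5% of columnar cells and in 11.0%, 14.2%, 43.0% and 19.1% of non-epithelial cells. Both late libraries exceeded both early ones for these genes, which gives an exact two-sided permutation p of 0.333, the smallest that 2 against 2 libraries allow. Hnf4a was in 3.85% to 7.98% of squamous cells, at or below the 4.91% to 12.1% of non-epithelial cells, and in 15.2% to 23.1% of columnar cells. Klf5 was in 30.8%, 36.7%, 24.9% and 19.2% of squamous cells against 10.4%, 20.6%, 22.8% and 8.31% of non-epithelial cells. Cdx2 was in 0.935% of columnar cells on day 6, and in 0.977% of non-epithelial cells there, each from 6 cells. Without thinning these shares were 12.1% and 2.22%, and the day 6 levels of 16.7 and 6.59 CPM gave the highest columnar to non-epithelial ratio of Cdx2 in the tumor libraries (2.53, against 1.06 to 2.09).

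The normal colon gave the highest columnar level of 5 of the 7 genes. Columnar cells held 413.5 CPM of Cdx1, 172.5 of Cdx2, 552 of Hnf4a, 1849.6 of Klf4 and 674 of Klf5, each above every tumor library. Elf3 at 669 and Hnf4g at 80.2 CPM lay within the range of the tumor libraries (348 to 776.0 and 44.6 to 106). The 95% Poisson interval of Cdx2, 158 to 188 CPM, lay above its highest tumor level of 57.7 CPM and covers counting error only. With 1 untreated library and another dissociation, tumor, drugs, dissociation and library cannot be told apart and no test was made. The paper's protocol for enriching stroma also removed crypts before digestion. The cluster N0, led by the surface genes Tgm3 and Car1 with Slc26a3 and Aqp8, held 739 CPM of Hnf4a, 221.5 of Cdx2 and 2886 of Klf4. N1, which includes the cycling genes Ube2c and Top2a, held 349, 119 and 726 CPM, and slightly more Cdx1 (454 against 376 CPM) and Klf5 (718 against 633 CPM). Goblet-like cells had 204.0 CPM of Hnf4a, a ratio of 0.37 to the columnar level, and 1922 CPM of Klf4. Non-epithelial levels were below 5% of the columnar ones for 5 of the 7 genes here, with 18.7 CPM of Cdx1, 7.49 of Cdx2, 14.1 of Hnf4a, 26.7 of Elf3 and 20.1 of Klf5 in non-epithelial cells.

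Hnf4g and Klf4 were nearer to the columnar level in non-epithelial cells of the normal colon, Hnf4g at 20.6 CPM (25.7% of the columnar level, from 44 UMIs) and Klf4 at 1635.5 CPM (88.4%). By type Klf4 stood at 2475 CPM in fibroblast-like and 1819.7 CPM in endothelial-like cells, 978 in macrophage-like, 773 in glial-like, 603.5 in myofibroblast- and pericyte-like, 413 in B cell-like and 248 CPM in plasma-like cells. In the tumor libraries fibroblast-like cells had 204, 147, 138 and 549.7 CPM and endothelial-like cells 169, 383, 179 and 601.5 CPM. Non-epithelial Klf4 therefore does not serve as a measure of background. Klf5 among non-epithelial cells of the tumors was most abundant in neutrophil-like cells, at 197, 336, 464 and 231 CPM, while plasma-like cells had 136, 46.7 and 67.2 CPM in day 1 replicate 1, day 1 replicate 2 and day 6. Macrophage-like cells had 109.0, 154 and 61.7 CPM in those libraries. The squamous levels of Klf5 were above those of macrophage-like cells in each of these, whereas their counting intervals overlapped those of neutrophil-like cells in all 4 tumor libraries.

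**Figure D5:**
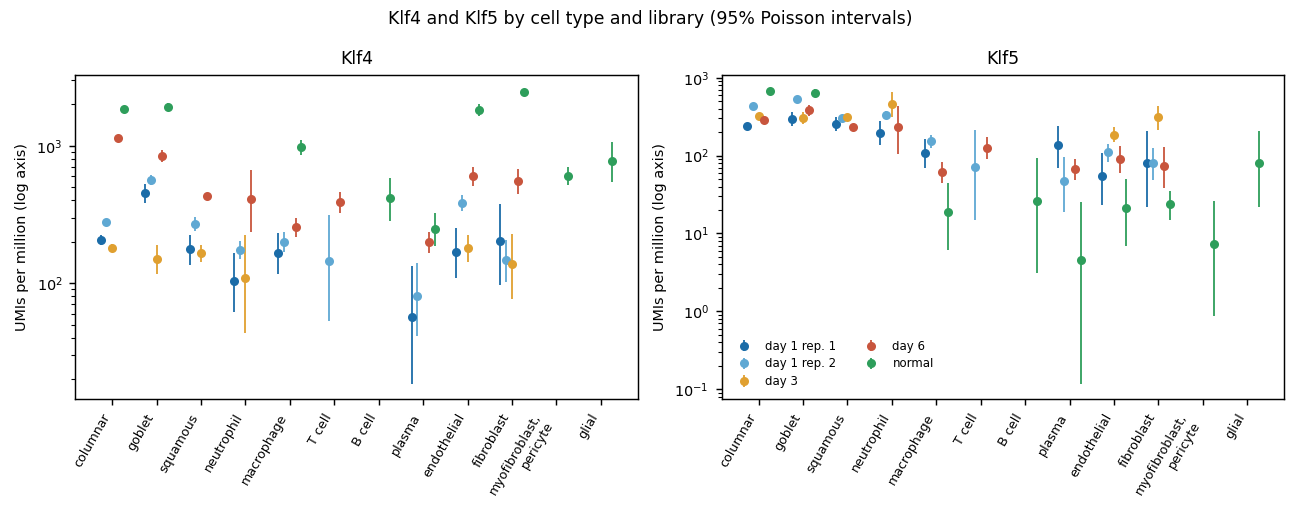
Klf4 and Klf5 by cell type and library (CPM, log axes) with bars for 95% Poisson intervals, for types with at least 10 cells in a library. Fibroblast-like cells of the normal colon reach 2475 CPM of Klf4, more than columnar cells at 1849.6, and Klf5 is lower in the non-epithelial types of the normal library than in its columnar cells.

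Over 46 sums of a cell type in a library, the genes closest to each member by Pearson's r of log2 CPM (20 added) are given as a description, since the sums share libraries. Elf3 was nearest to Gpa33 (r = 0.945), an intestinal surface antigen, Bspry (0.938) and Slc25a5 (0.936), and Cdx1 to Muc13 (0.914), a membrane mucin, Prss32 (0.898) and Cldn7 (0.898), a claudin used here as a columnar marker. Hnf4a was nearest to Prr15l (0.915), Tmprss4 (0.906) and Myo1a (0.897), a brush border myosin. Klf5 was nearest to Ceacam1 (0.881), Elf3 (0.879) and Myh14 (0.877). Cdx2 had lower values, with Krt18 (0.747), Cldn2 (0.736) and Nans (0.734), as had Hnf4g, with Ppp1r9a (0.761), C530008M17Rik (0.75) and Tmem117 (0.749), and Klf4, with Selenbp1 (0.755), Oat (0.73) and a gene printed in the files as a date (0.725). Among the members, Cdx1 had r of 0.858 with Elf3, 0.833 with Hnf4a and 0.58 with Cdx2, and Klf4 ranged from -0.101 with Elf3 to 0.206 with Hnf4g.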

How the data were processed

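Cells of mouse colon were captured by inDrop, a droplet method that reads the 3′ end of transcripts with UMIs. The authors deposited raw UMI counts per gene and cell, made by dropEst with GRCm38 named in the labels, and no normalised values were used. Cells with at least 500 genes and at most 15% mitochondrial counts were kept, 8491 in all. Treated and normal cells were clustered apart (scanpy 1.11.5, Leiden, 2000 variable genes, 20 components, resolution 1), with 84 genes, the 7 members among them, kept out of the variable genes. Clusters were named from fixed markers, by a rule settled after the clusters were seen, and 1031 cells stayed unnamed. No doublet was removed in the main analysis, since Scrublet called between 0 and 7 cells per library and had not worked at that rate.

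Counts were summed per class and library (at least 10 cells) and tested with the edgeR 4.0.16 quasi-likelihood test with TMM scaling and Benjamini-Hochberg adjustment over all genes tested, at a threshold of 0.05. Contrasts between classes had the library as a block, and SE is the absolute log2 fold change over the square root of F. DESeq2 1.42.0, other clusterings, filters, scalings and leaving out each library were alternatives. On simulated counts for squamous against columnar cells (12155 genes), edgeR called 98 of 99 genes with a simulated log2 change of 2 and 55 of 100 with a change of 1, and for late against early columnar cells (12988 genes) 90 of 99 and 23 of 97. The simulated counts had a dispersion of 0.05 for every gene and no library effects, so these figures do not give the power of the real fits. Totals per library ran from 5132360 to 16904947 UMIs, and Poisson intervals (95%) and floors of 3 counts cover counting error only. In each list the text names the 4 genes of lowest p over the lists, and further genes as examples of a list's count, the latter picked after their values were seen. The 7 members and all lists were chosen with earlier results of these data known.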

Additional observations from a re-analysis of the deposited data

Results flagged for a closer look

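In 1 member, with all libraries and edgeR, the difference between bins cut within each library was unlike in late and early libraries. The bins covered different ranges of the score. The day 6 stem bin ended at 5.83, above the 0.58 and 1.57 at which the day 1 differentiated bins began. For Cdx1 the difference between the differentiated and the stem bin of columnar cells was lower in late than in early libraries by a log2 term of -2.11 ± 0.37 (edgeR quasi-likelihood test, adjusted p = 0.039, n = 2 libraries per group). Single libraries gave differences of 2.15 and 1.96 on day 1, 0.45 on day 3 and -0.98 on day 6, so both late libraries lay below both early ones. The stem bins of days 1 and 3 stood near the non-epithelial Cdx1 level of their libraries, whose part in the term was not tested. The term was added after the pattern was seen and is a hypothesis from these data. It passed with DESeq2 (-2.06, adjusted p = 0.00163) and with scaling by total UMIs (-2.31, adjusted p = 0.0249), and both of these also called Cdx2, 2 members in all. Leaving out 1 library leaves a group of 1, assumed to vary like the other, and gave terms of -2.57 to -1.62 for Cdx1, with 2 to 4 members and 180 to 1590 genes called against 1 member and 116 genes with all libraries. The p-values of those fits are therefore no sign of stability.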

How the results depend on the processing

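Early and late libraries could not be paired by number, because the labels number only the day 1 libraries. Library structure, which holds 1 early and 1 late library each, was fitted as a term instead and called 0 genes in columnar and 34 in squamous cells, none of the 7 members among them. Wherever 1 library is left out of a late against early fit, the lone library of its group is assumed to vary like the other group. The lower Hnf4a and Hnf4g of squamous against columnar cells passed in every alternative run. The cause of the changes given here was not tested.

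For squamous against columnar cells, leaving out 1 library gave 1124 to 1773 genes called (1124 and 1160 without either day 1 library) and 2 to 4 members called lower, 5 members were lower with no filter, with scaling by total UMIs and without the columnar clusters nearest to background, and Klf4 was 0.03 without day 6.

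For secretory against columnar cells, the count of 1039 genes became 525 without the highest doublet scores, 2097 with no filter on low counts, 1686 without the columnar clusters nearest to the non-epithelial level and 386 to 1495 without 1 library (609 and 386 without either day 1 library). Cdx2, 1 member, was called higher without day 6 and in goblet-like cells alone. No member with a reversed direction passed. Without the columnar clusters nearest to background Cdx1 was -0.03, Hnf4a -0.27, Klf4 -0.26 and Klf5 -0.13, and with no filter Hnf4a was -0.05 and Klf5 -0.04. Hnf4g was 0.03 at resolution 2, 0.12 without day 3, 0.12 without day 6 and 0.11 in goblet-like cells. Elf3 was 0.04 without the highest doublet scores, 0.12 without day 6 and 0.05 in goblet-like cells. Without day 1 replicate 1 and replicate 2 Hnf4a was -0.17 and -0.03 and Klf4 -0.19 and -0.17.

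For squamous against non-epithelial cells, 4351 genes were called with no filter, 1600 without day 6 and 1553 to 3365 without 1 library (1770 and 1553 without either day 1 library). Members called higher numbered 1 at resolution 0.5, with clusters from separate UMIs, with DESeq2 and with scaling by total UMIs, and 0 to 2 without 1 library, the 0 being without day 6. Members called lower numbered 2 at resolution 0.5 and 0 to 1 without 1 library, again 0 without day 6.

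For the differentiated against the stem bin, leaving out 1 library gave 717 to 3073 genes (1210 and 717 without either day 1 library) and 2 to 7 members called higher, the 7 being without day 6, scaling by total UMIs gave 2 members and a split at the median score 3.

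For late against early columnar cells, the count of 0 genes became 1065 with no filter, 618 with DESeq2, 29 with day as a number, 3 without the columnar clusters nearest to background, 1969 without day 3, 686 without day 6 and 11 to 1969 over all libraries left out (26 and 11 without either day 1 library). Members called higher numbered 2 with no filter, 2 with DESeq2, 2 without day 3 and 0 to 2 over the libraries left out. Cdx2 was -0.84 without day 3, -0.01 with library structure as a term, -0.14 with day as a number, -0.71 without the columnar clusters nearest to background and -0.17 with scaling by total UMIs. Hnf4g was -0.37 and Klf4 -0.07 without day 6. Klf5 was -0.08 without day 1 replicate 1, 0.72 without replicate 2, -0.27 without the columnar clusters nearest to background and -0.16 with scaling by total UMIs.

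For late against early squamous cells, the count of 0 genes became 94 with no filter, 20 with DESeq2, 34 with library structure as a term, 143 without day 3, 19 without day 6 and 13 to 143 over all libraries left out. Cdx2 was -0.26 with clusters from separate UMIs, -0.48 with library structure as a term, -0.41 with day as a number and -2.39 without day 3. Hnf4a was -0.01 with day as a number and -0.17 without day 3, Hnf4g 0.24 without day 1 replicate 2 and -1.05 without replicate 1, and Klf4 -0.26 without day 6. Klf5 was -0.03 with day as a number, -0.04 with scaling by total UMIs, -0.05 without day 1 replicate 1, 0.29 without replicate 2 and -0.17 without day 3.

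For the squamous minus columnar terms, DESeq2 called 57 genes. Without the columnar clusters nearest to background Cdx1 was 0.61, Cdx2 0.60, Elf3 0.06 and Klf5 0.35, and with scaling by total UMIs 0.16, 0.06, 0.02 and 0.06. For the bin by time terms DESeq2 called 216 genes, scaling by total UMIs 163 and the fit without day 3 1590, against 116. That of Elf3 was -0.03 with scaling by total UMIs, -0.12 without day 1 replicate 1, 0.52 without replicate 2 and -0.25 without day 6. The late minus early share of squamous cells with Cdx2 was -1.13 points at 500 UMIs and -0.584 unthinned, and with Hnf4a 5.70 points unthinned. Cdx2 had 4 to 43 UMIs in squamous cells of a library, and Hnf4g 5 to 75, which limits the precision of both.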

Other observations

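A cluster of 740 day 6 cells with a median of 1318.5 UMIs was left unnamed, since its leading genes were of Paneth and goblet cells (Defa17, Clca1, Zg16) while its other markers were nearest to columnar cells. It held 346 CPM of Cdx1, 16.8 of Cdx2, 301 of Hnf4a, 50.3 of Hnf4g, 612 of Elf3, 905 of Klf4 and 356 of Klf5. Cdx2 was thus as low as in the named columnar cells of day 6 (16.7 CPM), and Klf4 was below their 1142 CPM.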
